A study of Mus musculus with 20 samples.

Results

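The comparison described here asks whether the transcriptional response to an endoplasmic reticulum (ER) poison differs between 2 kinds of motor neuron made from mouse embryonic stem cells. It was chosen by design and not by measured values: it is the CPA response of NIP neurons minus the CPA response of NIL neurons, in the 8 libraries whose titles carry 36 h, out of 20 libraries in the series. The 4 groups, with 2 libraries each, are NIL without CPA at 36 h, NIL with CPA at 36 h, NIP without CPA at 36 h and NIP with CPA at 36 h. The labels call NIL spinal and NIP cranial motor neurons. The letters stand in this field for the factors that program them: Neurog2, Isl1 and Lhx3 for NIL, and Neurog2, Isl1 and Phox2a for NIP. Cyclopiazonic acid (CPA) was given at 20 µM to neurons of culture day 2 in serum-containing motor neuron medium with growth factors, which all 4 groups share. Collection at 12 h and 36 h is what the titles say, but the treatment text has 6 h and 12 h, and the titles were followed. The labels do not say whether the replicates came from separate differentiations, so p-values measure the spread between these libraries, which may be technical. They name no stem cell line or number of clones for either type.

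CPA blocks the SERCA pumps that load calcium into the ER. Proteins then misfold there, and the sensors PERK, IRE1 and ATF6 start the unfolded protein response: chaperones and degradation factors rise, translation slows, and the factors ATF4 and CHOP (encoded by Ddit3) turn on genes of amino acid supply and, when stress lasts, of cell death. Spinal motor neurons are among the cells lost in amyotrophic lateral sclerosis (ALS), and some cranial motor neurons, such as those that move the eyes, are relatively spared.

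The line of each 36 h library was checked by the factors of its program, in CPM (a gene's reads relative to the scaled library size). As these factors program the cells, they show which program a library had and not whether its cells became spinal or cranial. Lhx3, the spinal factor of the NIL program, stood at 143 and 144 CPM in untreated NIL and at 0, 2, 0 and 0 reads in the 4 NIP libraries, so no fold in NIP is given for it. Phox2a, the cranial factor of the NIP program, stood at 160 and 220 CPM in untreated NIP and at 0.181 and 3.31 CPM in untreated NIL. Gene reads per library ran from 10531171 to 25042400. A pair of libraries stands apart in Rn45s, the ribosomal RNA precursor gene: it took 38.6% of gene reads in untreated NIP replicate 1 and 38.3% in CPA-treated NIL replicate 2, against 5.95% to 20.4% in the other 6. Both enter the line difference with a minus sign, 1 in each replicate set, and values without them are given below for the count, for the 19 genes as a range and for the lists and single genes whose values moved most.

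At 36 h 19 of 14792 tested genes (0.128%) responded to CPA differently in the 2 lines (edgeR quasi-likelihood test with the replicate number as a block, adjusted p under 0.05). In 12 of them (0.0811%) the log2 response was higher in NIP, and in 7 (0.0473%) it was lower. This split depends on the fit: with DESeq2 68 genes had a higher response in NIP and 78 a lower one. Where libraries were left out, either direction could be the larger. Without both libraries high in Rn45s the genes called were those with a lower response in NIP. Each line by itself responded broadly: 2697 genes (18.2%) in NIL and 1517 (10.3%) in NIP passed the test, and over all genes the 2 responses, which share no library, correlated with Pearson's r of 0.55 and a Spearman rank correlation of 0.59 across genes, which are not independent replicates. In both lines 367 genes rose and 391 fell, whereas 6 fell in NIL and rose in NIP and 5 rose in NIL and fell in NIP. The count of 19 depends on the fit. It was 0 with no replicate block, where 651 genes had an unadjusted p under 0.05 against 1368 (9.25%) with it. It was 0 when the 8 libraries were fitted alone, 169 with a separate block for each line, 146 with DESeq2, 14 with Rn45s removed from the library sizes, and 6 without both libraries high in Rn45s. Leaving out 1 library gave 0 (untreated NIL replicate 1), 6 (untreated NIL replicate 2), 38 (NIL with CPA, replicate 1), 1 (untreated NIP replicate 1) and 84 (NIP with CPA, replicate 2), and 15 or 16 for the other 3. These are not the same genes: of the 19, 8 were still called without NIP with CPA replicate 1, 6 without NIL with CPA replicate 2, 5 without untreated NIP replicate 2, 10 without NIL with CPA replicate 1, 6 without untreated NIL replicate 2, 1 without untreated NIP replicate 1 and 14 without NIP with CPA replicate 2.

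**Figure D1:**
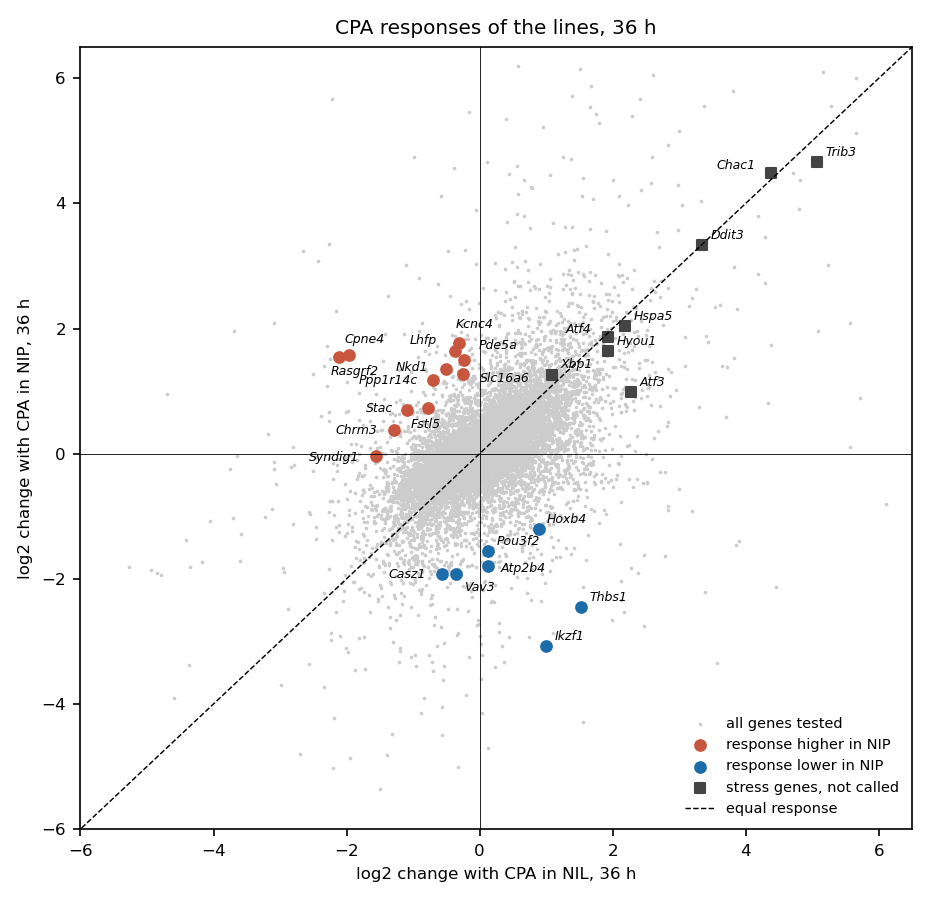
Log2 change with CPA at 36 h in NIL (horizontal axis) and NIP (vertical axis) for each tested gene. Red and blue points are the 19 genes that passed the test of the line difference, squares are ER stress genes that did not pass, the dashed line marks equal responses, and 11 genes lie outside the axes. The stress genes other than Atf3 lie near the line, while Rasgrf2 and Cpne4 lie at upper left and Thbs1 at lower right.

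Among the 19 genes the largest positive differences belonged to Rasgrf2 and Cpne4, which fell in NIL and rose in NIP. Rasgrf2 encodes a calcium-regulated exchange factor for Ras and Rac and lies at chr13:91880400-92131656 on the minus strand (GRCm38, GENCODE vM21, as all gene positions here). In NIL its level was 18.4 and 7.98 CPM without CPA and 4.76 and 1.16 CPM with it, in replicate sets 1 and 2. In NIP it was 12.5 and 10.3 CPM without CPA and 54.7 and 21.01 CPM with it. In neither line did treated and untreated libraries overlap. The log2 response was -2.11 ± 0.38 (SE) in NIL and 1.55 ± 0.33 in NIP, and the line difference was 3.66 ± 0.50 (edgeR adjusted p = 0.0139). Cpne4 encodes a copine, a protein that binds membranes when calcium is present (chr9:104547286-105034544, plus strand). Its level was 26.7 and 26.7 CPM in untreated NIL, 9.45 and 4.24 CPM in NIL with CPA, 9.77 and 11.9 CPM in untreated NIP and 44.4 and 24.5 CPM in NIP with CPA. The untreated levels were thus higher in NIL and the treated levels higher in NIP, with no overlap. The line difference was 3.53 ± 0.49 (edgeR adjusted p = 0.0139), and without both libraries high in Rn45s it was 2.97 ± 0.56 with adjusted p = 0.121, against 3.08 ± 0.56 and 0.106 for Rasgrf2.

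To set a gene whose response differed beside one whose response did not pass the test, the 250 bases before the start of Rasgrf2 (chr13:92131829-92132078, minus strand) and of Hspa5 (chr2:34771840-34772089, plus strand) are shown from RefSeq, GRCm38.p6. RefSeq and GENCODE place the starts differently: the GENCODE start of Hspa5, at 34771970, lies within its window, and that of Rasgrf2, at 92131656, lies downstream of its window without adjoining it. Capitals mark matches on either strand to the ER stress element (ERSE), to TGACG, the core of the cyclic AMP element, and to the AP-1 site TGANTCA.
Rasgrf2: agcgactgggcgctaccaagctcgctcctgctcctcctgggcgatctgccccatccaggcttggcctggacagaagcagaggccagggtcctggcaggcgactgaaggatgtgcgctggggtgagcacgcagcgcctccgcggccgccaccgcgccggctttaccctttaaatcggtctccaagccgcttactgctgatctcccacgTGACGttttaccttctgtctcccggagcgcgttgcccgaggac
Hspa5: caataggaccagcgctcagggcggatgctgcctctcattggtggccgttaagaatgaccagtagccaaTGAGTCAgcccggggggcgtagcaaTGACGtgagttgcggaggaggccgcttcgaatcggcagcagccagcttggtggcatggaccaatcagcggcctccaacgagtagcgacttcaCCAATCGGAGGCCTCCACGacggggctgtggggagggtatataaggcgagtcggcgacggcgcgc
In Rasgrf2 the only match was TGACG, 43 bases before the start. The Hspa5 window, that of the ER chaperone BiP, held the stress element 65 bases, TGACG 157 bases and the AP-1 site 182 bases before the start. Of the 19 genes 17 had a window in the table. TGACG was in 4 of these 17 (Casz1, Fstl5, Kcnc4 and Rasgrf2) and in 17.9% of 27025 genes in the table. ERSE (0.122% of genes), ERSE-II (0.0333%), the full cyclic AMP element (TGACGTCA, 1.62%), TGANTCA (6.87%) and the ATF4-C/EBP composite (TTGCATCA, 0.818%) were in none of the 17.

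A further pair of genes fell in NIL and rose in NIP. Stac, which encodes an adaptor of voltage-gated calcium channels (chr9:111561437-111690348, minus strand), went from 10.0 and 5.93 CPM to 4.50 and 2.95 CPM in NIL, and from 32.5 and 29.5 CPM to 50.3 and 50.2 CPM in NIP. The NIP libraries were higher than every NIL library with and without CPA, and the gap widened with CPA: the line difference was 1.78 ± 0.33 (edgeR adjusted p = 0.0497). Fstl5, which encodes a follistatin-like protein (chr3:76074270-76710019, plus strand), went from 78.5 and 42.0 CPM to 52.3 and 19.6 CPM in NIL, where the groups overlap. In NIP it went from 74.8 and 46.0 CPM to 118 and 80.9 CPM. Within each set it was lower with CPA in NIL and higher in NIP, by 1.52 ± 0.26 on the log2 scale between the lines (edgeR adjusted p = 0.0366).

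In 6 genes the response passed the test in NIP, as a rise, and not in NIL. Kcnc4, a voltage-gated potassium channel (chr3:107438303-107459552, minus strand), rose in NIP from 27.5 and 24.7 CPM to 95.8 and 82.7 CPM. In NIL it was 8.03 and 8.08 CPM without CPA and 5.71 and 7.58 CPM with it, so all NIP libraries were above all NIL libraries, and the line difference was 2.08 ± 0.36 (edgeR adjusted p = 0.0380). Pde5a, an enzyme that breaks down cyclic GMP (chr3:122728947-122859374, plus strand), rose in NIP from 7.39 and 7.02 CPM to 16.3 and 24.6 CPM. In NIL it stood at 27.1 and 23.9 CPM without CPA and at 23.2 and 20.3 CPM with it. The untreated lines were apart for Pde5a and the treated ones overlapped (1.73 ± 0.26, edgeR adjusted p = 0.0139). Slc16a6, a monocarboxylate transporter (chr11:109450855-109473598, minus strand), was also higher in NIL than in NIP when untreated. It rose in NIP from 19.4 and 18.2 CPM to 46.8 and 43.8 CPM, beside 45.9 and 48.6 CPM untreated and 39.6 and 39.7 CPM treated in NIL (1.53 ± 0.28, adjusted p = 0.0497). Lhfp, a tetraspan membrane protein (chr3:53041528-53261679, plus strand), rose in NIP from 5.01 and 3.67 CPM to 14.1 and 12.7 CPM. Its NIL groups overlapped, at 15.1 and 10.1 CPM without CPA and 12.8 and 6.68 CPM with it (2.02 ± 0.33, adjusted p = 0.0264). Nkd1, a feedback inhibitor of Wnt signalling (chr8:88521354-88594884, plus strand), and Ppp1r14c, an inhibitor of protein phosphatase 1 (chr10:3366057-3464975, plus strand), showed no difference past the threshold between the untreated lines. Nkd1 rose in NIP from 6.32 and 7.66 CPM to 16.1 and 19.9 CPM and was 8.83 and 8.85 CPM, then 7.04 and 5.14 CPM, in NIL (1.85 ± 0.35, adjusted p = 0.0497). Ppp1r14c rose in NIP from 15.3 and 12.7 CPM to 42.7 and 23.8 CPM and was 15.9 and 7.59 CPM, then 9.33 and 5.01 CPM, in NIL (1.88 ± 0.33, adjusted p = 0.0380).

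In the last 2 positive genes the response passed as a fall in NIL and did not pass in NIP. Chrm3, a muscarinic acetylcholine receptor (chr13:9875486-10360847, minus strand), fell in NIL from 21.2 and 16.5 CPM to 9.14 and 6.29 CPM. In NIP it was 4.77 and 3.99 CPM without CPA and 6.05 and 5.46 CPM with it (line difference 1.68 ± 0.30, edgeR adjusted p = 0.0497). Syndig1, a membrane protein of excitatory synapses (chr2:149829211-150004392, plus strand), fell in NIL from 99.1 and 75.3 CPM to 36.3 and 23.2 CPM. Its NIP groups overlapped, at 5.96 and 5.60 CPM untreated and 7.83 and 3.77 CPM treated, and even after the fall every NIL library was above every NIP library (1.52 ± 0.29, edgeR adjusted p = 0.0497).

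Among the 7 negative differences was Thbs1, the only gene of the 19 that also passed in the fit with 1 common block when both libraries high in Rn45s were left out. It encodes thrombospondin-1, a secreted matrix glycoprotein (chr2:118111876-118127133, plus strand). In NIL it rose from 13.4 and 29.3 CPM to 53.0 and 63.7 CPM, and in NIP it fell from 115 and 76.3 CPM to 14.3 and 22.5 CPM. The untreated order, NIP above NIL, was thus turned round with CPA, with no overlap in either condition. The log2 response was 1.53 ± 0.37 in NIL and -2.46 ± 0.37 in NIP, a line difference of -3.99 ± 0.52 (edgeR adjusted p = 0.0139), and -3.52 ± 0.47 without both libraries high in Rn45s (adjusted p = 0.0267). Hoxb4, a homeobox factor of body position (chr11:96318267-96321638, plus strand), also rose in NIL and fell in NIP. It went from 2.46 and 2.43 CPM to 4.76 and 4.24 CPM in NIL and from 16.9 and 13.0 CPM to 8.29 and 4.58 CPM in NIP, and the treated lines overlapped (-2.10 ± 0.39, adjusted p = 0.0497).

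A group of 4 genes fell in NIP with no response past the threshold in NIL. Atp2b4, a plasma membrane pump that exports calcium (chr1:133699457-133801041, minus strand), fell in NIP from 47.0 and 65.9 CPM to 16.1 and 16.2 CPM. In NIL it was far lower, at 5.14 and 4.09 CPM untreated and 4.82 and 5.65 CPM treated, and the line difference was -1.92 ± 0.32 (edgeR adjusted p = 0.0349). Vav3, a guanine nucleotide exchange factor (chr3:109340653-109685698, plus strand), fell in NIP from 49.6 and 37.4 CPM to 14.7 and 8.55 CPM, into the range of NIL. In NIL it was 15.1 and 10.3 CPM without CPA and 11.7 and 8.09 CPM with it (-1.57 ± 0.24, edgeR adjusted p = 0.0139). Pou3f2, a neuronal POU factor (chr4:22482780-22488366, minus strand), was near equal in the untreated lines. It fell in NIP from 10.7 and 10.6 CPM to 3.26 and 4.04 CPM and was 9.16 and 9.44 CPM, then 12.3 and 7.70 CPM, in NIL (-1.68 ± 0.32, adjusted p = 0.0497). Ikzf1, a zinc finger factor best known from blood cells (chr11:11685003-11772926, plus strand), was too low for the naming rule and is named after its values were seen. Its NIP libraries held 14 and 47 reads without CPA and 4 and 4 with it, and its NIL libraries 7 and 8, then 12 and 8 (-4.07 ± 0.77, adjusted p = 0.0497). Casz1, a zinc finger factor (chr4:148804429-148954889, plus strand), fell in both lines and more in NIP. It went from 108 and 123 CPM to 81.5 and 74.7 CPM in NIL and from 83.3 and 61.8 CPM to 20.4 and 17.4 CPM in NIP (-1.37 ± 0.25, adjusted p = 0.0497).

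**Figure D2:**
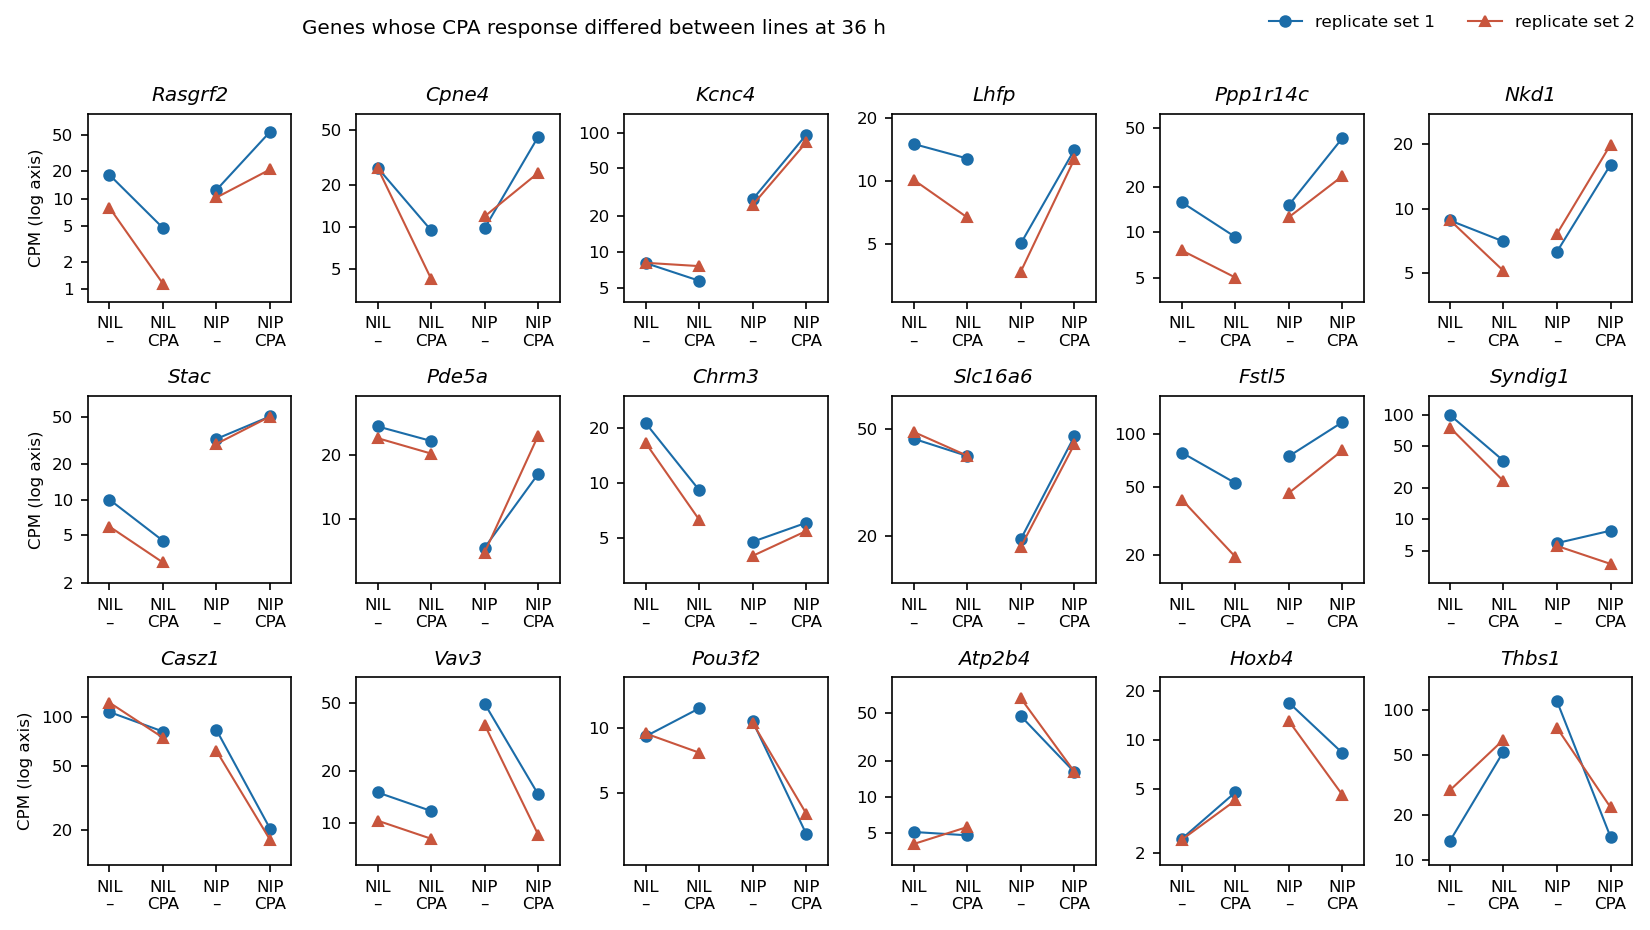
Level of each of the 18 genes past the test and the naming rule in each 36 h library, as CPM on a log axis, untreated (dash) and with CPA. Circles are replicate set 1 and triangles set 2, and lines join the libraries of a line and set. In both sets the lines run down in NIL and up in NIP for the positive genes other than Syndig1, and up in NIL and down in NIP for Thbs1 and Hoxb4.

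Across the 19 genes the treated and untreated groups did not overlap in NIP for 18 and in NIL for 12. The 19 were chosen from these same libraries, which favours such separation. The share over all genes was not counted, so these counts describe the genes and add no support. Of the 19, 18 were past the adjusted threshold with DESeq2, which gave no adjusted p for Ikzf1, and all 19 were with a separate block for each line. Without both libraries high in Rn45s the 19 values were 0.793 to 1.17 times those reported, with 1 of the 19 past the threshold with the common block (adjusted p up to 0.463) and 9 with a separate block for each line. With all libraries and the common block their adjusted p lay between 0.0139 and 0.0497, and 9 of them shared the highest value, so the threshold cuts through closely placed genes: 43 genes (0.291%) had an adjusted p under 0.10. Ccnd2, a cyclin of the early cell cycle, was among those just outside, at 1.98 ± 0.38 (edgeR adjusted p = 0.0552), and was named after its values were seen. It was 30.4 and 53.3 CPM in untreated NIL, 53.3 and 60.7 CPM in NIL with CPA, 2.62 and 7.43 CPM in untreated NIP and 21.8 and 36.1 CPM in NIP with CPA.

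The core of the unfolded protein response did not show a line difference past the threshold. Hspa5, the chaperone BiP, rose in NIL from 374 and 487 CPM to 1843 and 2067 CPM and in NIP from 305 and 332 CPM to 1360 and 1251 CPM. The groups were far apart in both lines, and the line difference was -0.15 with a 95% interval from -0.85 to 0.56. Ddit3, the death-linked factor CHOP, rose from 9.27 and 13.1 CPM to 73.9 and 163 CPM in NIL and from 10.3 and 10.9 CPM to 83.2 and 133 CPM in NIP (-0.01, interval -0.996 to 0.968). The intervals thus leave room for differences in either direction of up to about the size of 1 log2 unit. Atf4 rose by 1.92 in NIL and 1.87 in NIP on the log2 scale (difference -0.06, interval -0.86 to 0.74). Xbp1, the factor spliced by IRE1, rose by 1.09 and 1.27 (0.17, -0.25 to 0.60), and Hyou1, an ER chaperone, by 1.93 and 1.64 (-0.29, -0.96 to 0.37). Less precise were Trib3, a CHOP target, at -0.41 (-2.14 to 1.32), and Chac1, which degrades glutathione, at 0.11 (-2.34 to 2.56). Both rose in each line. Atp2a2, which encodes a SERCA pump, the target of CPA, was higher with CPA in both lines but did not pass in either. It went from 397 and 328 CPM to 588 and 451 CPM in NIL (log2 0.52, edgeR adjusted p = 0.060). In NIP it went from 353 and 333 CPM to 627 and 421 CPM (0.59, adjusted p = 0.051). The line difference was 0.07 (-0.47 to 0.62).

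By list, the ER genes moved alike in their medians. Of 30 ER chaperones and folding enzymes 25 rose in NIL, against 7.25% of all genes, and 23 in NIP, against 5.10%. Their median line difference was -0.02, beside 0.04 over all genes, with 0 of 30 past the test. ER-associated degradation (22 genes, 8 risen in each line) had a median of -0.01 and protein entry and glycosylation (25 genes, 16 risen in NIL, 13 in NIP) one of -0.02. The 14 sensors and transcription factors of the response had a median of 0.15, and 7 rose in NIL and 8 in NIP. In all 37 lists, with 770 tested genes, 1 gene passed the test of the line difference, the calcium pump Atp2b4. Over all genes 19 of 14792 (0.128%) passed, so this count lies near the background. At that share a list of 30 genes would mostly hold 0, so a count of 0 in a single list tells little.

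The lists downstream of ATF4 had positive medians, with 0 members past the test. Of 24 genes of amino acid synthesis and transport 17 rose in NIL, against 7.25% of all genes, and 22 in NIP, against 5.1%. Their median log2 responses were 1.62 and 2.43. The line difference was positive in 22 of the 24 (91.7%, against 54.1% of all genes), with a median of 0.60, of 0.79 in replicate set 1 and 0.41 in set 2, and of 0.59 without both libraries high in Rn45s. Members of this and the following lists are named as examples after their values were seen. Shmt2, the mitochondrial serine hydroxymethyltransferase, went from 20.8 and 34.0 CPM to 70.9 and 88.3 CPM in NIL and from 16.9 and 22.0 CPM to 141 and 130 CPM in NIP (1.26 ± 0.50, edgeR adjusted p = 0.434). Gpt2, the mitochondrial alanine aminotransferase, went from 34.2 and 32.1 CPM to 56.1 and 67.5 CPM in NIL and from 24.8 and 24.9 CPM to 101 and 107 CPM in NIP (1.18 ± 0.33, adjusted p = 0.182). For both genes the treated NIP libraries were above the treated NIL libraries. Asns, asparagine synthetase, reached 312 and 231 CPM in NIL and 603 and 452 CPM in NIP with CPA, from 155 and 149 and from 212 and 222 CPM (0.44 ± 0.33, adjusted p = 0.744, and 0.19 without both libraries high in Rn45s).

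Of 20 cytosolic tRNA synthetases 12 rose in NIL and 15 in NIP, against 7.25% and 5.1% of all genes. The line difference was positive in 17 (85%, against 54.1% of all genes). Its median was 0.35 (0.27 without both libraries high in Rn45s), with 0.53 in replicate set 1 and 0.07 in set 2. Of 22 ATF4 and CHOP targets 18 rose in NIL and 19 in NIP. The line difference was positive in 15 of these targets (68.2%, against 54.1% of all genes), with a median of 0.53. Their single values ran from -3.95 to 3.45. Atf3, a stress factor itself, had a difference of -1.29 ± 0.36 (edgeR adjusted p = 0.166, and -0.83 without both libraries high in Rn45s), since it rose by 2.28 in NIL and by 0.99 in NIP, and untreated NIP (21.3 and 19.5 CPM) was above untreated NIL (6.77 and 7.10 CPM). Ddit4, an inhibitor of mTORC1, rose in NIP from 22.2 and 28.3 CPM to 48.8 and 76.0 CPM and was 50.3 and 56.8 CPM, then 49.9 and 67.0 CPM, in NIL (1.18 ± 0.26, adjusted p = 0.101).

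**Figure D3:**
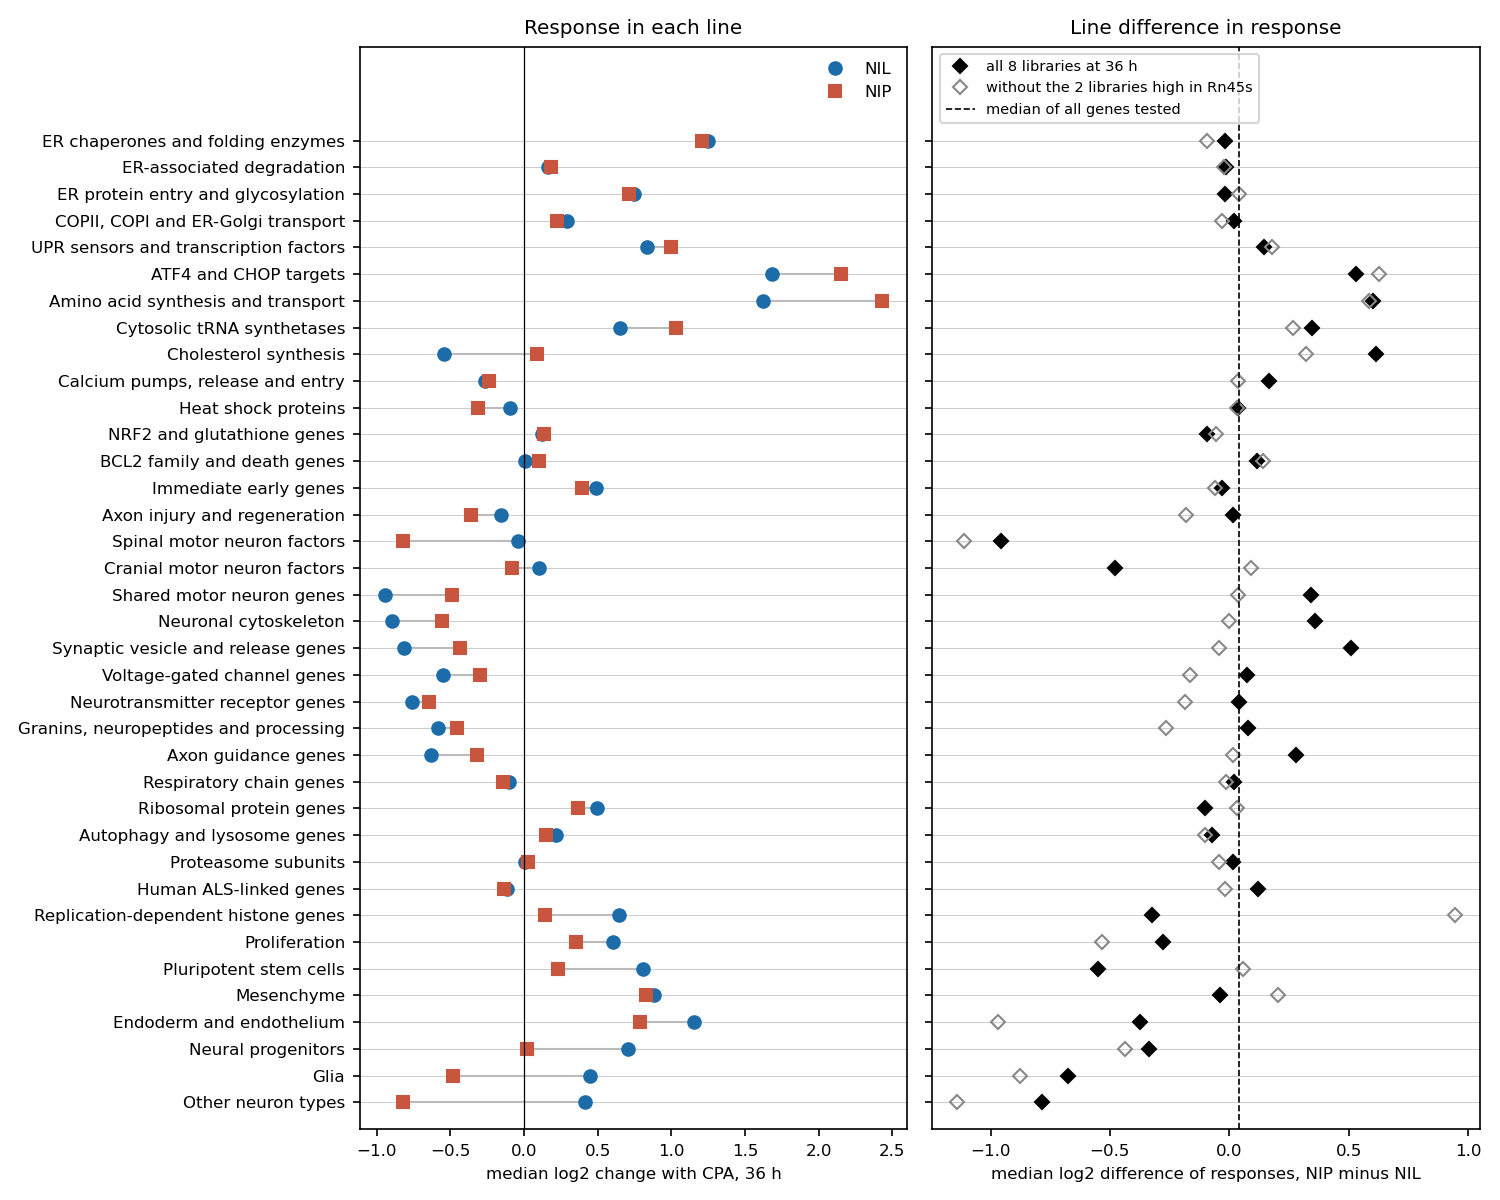
Medians over the tested genes of each of 37 lists. Left, the median log2 change with CPA at 36 h in NIL (circles) and NIP (squares). Right, the median line difference with all 8 libraries (filled) and without the 2 libraries high in Rn45s (open), with the median of all tested genes dashed. The filled and open marks lie together for amino acid genes (0.60 and 0.59) and apart for synaptic genes (0.51 and -0.05).

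Genes of cholesterol synthesis had a positive difference in 23 of 24, against 54.1% of all genes, with a median of 0.61 and 0 past the test. In NIL 9 of the 24 fell, against 11% of all genes, and 0 rose, against 7.25%. In NIP 1 rose and 0 fell, against 5.1% and 5.15%. Without both libraries high in Rn45s the median was 0.32. Idi1, an isomerase of isoprenoid synthesis, had a log2 response of -1.23 in NIL, which passed, and of -0.05 in NIP, and the line difference was 1.18 ± 0.40 (edgeR adjusted p = 0.312). Sqle, squalene epoxidase, was 190 and 126 CPM, then 140 and 79.9 CPM, in NIL and 174 and 145 CPM, then 257 and 137 CPM, in NIP (0.78 ± 0.26, adjusted p = 0.280, and 0.50 without both libraries).

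Structural and synaptic genes of neurons fell in more members in NIL than in NIP, and here the libraries high in Rn45s bear on the medians. Of 27 genes of the neuronal cytoskeleton 24 fell in NIL, against 11% of all genes, and 9 in NIP, against 5.15%. The line difference was positive in 26 of 27 (96.3%, against 54.1% of all genes), with a median of 0.36, but of 0.00 without both libraries high in Rn45s. Of 25 synaptic vesicle and release genes 19 fell in NIL and 6 in NIP, and the median of 0.51 became -0.05. Of 20 genes shared by motor neurons 12 fell in NIL and 5 in NIP, and the median of 0.34 became 0.04. In this list the line difference was positive in 12 genes (60%, near the 54.1% of all genes) and negative in 8. It ran from -0.78 to 1.39, and the members Slc18a3 and Ret, named below, come from the positive side. None of these 72 genes passed the test. Nefm, the medium neurofilament, fell in NIL from 1987 and 1152 CPM to 671 and 362 CPM and in NIP from 1489 and 870 CPM to 767 and 538 CPM (0.79 ± 0.25, edgeR adjusted p = 0.248, and 0.71 without both libraries high in Rn45s). Slc18a3, the vesicular acetylcholine transporter, fell in NIL from 328 and 271 CPM to 127 and 59.2 CPM. In NIP it was 196 and 167 CPM, then 145 and 140 CPM (1.39 ± 0.33, adjusted p = 0.119, and 0.98 without both libraries). Ret, a receptor for neurotrophic factors of the GDNF family, fell in NIL from 614 and 479 CPM to 275 and 150 CPM and was 554 and 680 CPM, then 628 and 520 CPM, in NIP (1.25 ± 0.30, adjusted p = 0.119, and 0.70 without both libraries). In such bulk samples fewer cells of a type and less RNA per cell cannot be told apart.

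Genes of motor neuron identity differed member by member. The 12 spinal factors had a median line difference of -0.96 and the 12 cranial ones of -0.48, with replicate sets unlike each other (-1.49 and 0.10 for spinal, -1.05 and -0.33 for cranial), and several are near absent in 1 line. Without both libraries high in Rn45s the spinal median was -1.11 and the cranial one turned to 0.09. Isl1, a factor of both programs, fell in NIL from 222 and 142 CPM to 162 and 87.6 CPM and was 159 and 122 CPM, then 186 and 151 CPM, in NIP (0.83 ± 0.24, edgeR adjusted p = 0.194). Phox2a had a difference of -0.42 with an interval from -2.77 to 1.92, and of 0.65 without both libraries high in Rn45s. Prph, the intermediate filament peripherin, was 795 and 664 CPM in untreated NIP and 80.8 and 77.4 CPM in untreated NIL, and its response differed by 0.61 (0.08 to 1.15, adjusted p = 0.456). The channel, receptor, neuropeptide and axon guidance lists, with 113 tested genes, had medians between 0.04 and 0.28. Without both libraries high in Rn45s these were -0.17 for channels, -0.18 for receptors, -0.26 for neuropeptides and 0.02 for guidance genes, so the sign turned in the first 3.

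Genes of cell death gave no line difference past the threshold. In the BCL2 family list (20 genes) the median was 0.12, with 11 positive (55%, near the 54.1% of all genes). Its members ran from -1.31 to 1.34. An unadjusted edgeR p under 0.05 was found for 6 of them (30%, against 9.25% of all genes). Bcl2, a survival factor, fell in NIL from 22.3 and 13.6 CPM to 13.1 and 6.93 CPM and was 13.6 and 15.7 CPM, then 26.3 and 17.7 CPM, in NIP (1.34 ± 0.36, edgeR adjusted p = 0.151, and 0.85 without both libraries high in Rn45s). Hrk, a neuronal death activator, fell in NIP from 123 and 117 CPM to 48.5 and 60.4 CPM and was 60.4 and 57.2 CPM, then 50.1 and 47.5 CPM, in NIL (-0.87 ± 0.35, adjusted p = 0.441). Of 25 mouse counterparts of genes linked to human ALS 1 rose and 3 fell in NIL, 1 rose and 1 fell in NIP, and 0 passed the test of the line difference, with a median of 0.12 (-0.02 without both libraries high in Rn45s). Over all genes 7.25% rose and 11% fell in NIL and 5.1% rose and 5.15% fell in NIP, so these counts lie near the background. Of 24 genes of calcium pumps, release and entry 6 fell in NIL (11% of all genes did) and 4 in NIP (5.15% of all genes), with a median line difference of 0.17 (0.04 without both libraries high in Rn45s). Heat shock proteins (19 genes, median 0.03), NRF2 and glutathione genes (18, -0.09), immediate early genes (24, -0.03), axon injury genes (22, 0.02), ER-Golgi transport (26, 0.02) and autophagy and lysosome genes (26, -0.07) had medians near that of all genes, while their single members ran as far as -4.15 in the immediate early genes. Histone genes (20) had a median of -0.33, which turned to 0.94 without both libraries high in Rn45s. The medians were 0.02 for respiratory chain genes, -0.10 for ribosomal protein genes and 0.02 for proteasome subunits.

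Markers of other cells also differed in level between the groups, in some lists with line differences of opposite sign in the replicate sets. The 18 endoderm and endothelium markers summed to 6420 and 22200 CPM in untreated NIL and to 18510 and 39580 CPM in NIL with CPA, and to 873 and 4389 CPM in untreated NIP and 602 and 10270 CPM in NIP with CPA. The sum was thus higher with CPA in both NIL pairs and in NIP set 2 and lower in NIP set 1. The markers had a median line difference of -0.38, of -1.88 in set 1 and 0.64 in set 2. Basement membrane genes dominate the sum, such as Lama1 with 3767 and 8773 CPM in NIL with CPA. The 24 proliferation genes summed to 430 and 1197 CPM, then 821 and 1342 CPM, in NIL and 118 and 230 CPM, then 111 and 365 CPM, in NIP, and the 16 pluripotency genes to 59.1 and 418 CPM, then 190 and 784 CPM, in NIL and 15.4 and 48.3 CPM, then 18.6 and 126 CPM, in NIP. Of the mesenchyme markers Lum and Dcn, and of the glial markers Gfap, were at 0 reads in all 8 libraries. The glial sums ran from 121 to 348 CPM in NIL and from 36.5 to 129 CPM in NIP, and those of neural progenitors from 539 to 718 CPM and from 630 to 730 CPM. Markers of other neuron types (11 tested genes) had a median line difference of -0.79, glial ones (9) of -0.68, neural progenitor ones (15) of -0.34, proliferation ones (24) of -0.28, pluripotency ones (15) of -0.55 and mesenchymal ones (10) of -0.04, with 0 past the test. Without both libraries high in Rn45s the pluripotency median turned to 0.06 and the mesenchymal one to 0.20. The other medians moved further below 0. They were -0.97 for endoderm and endothelium, -1.14 for other neuron types, -0.88 for glia, -0.53 for proliferation and -0.435 for neural progenitors. The replicate sets also differed in sign for proliferation (-1.27 in set 1, 0.54 in set 2), glia (-0.84 and 0.19) and mesenchyme (-0.78 and 0.45). The part of these cells in the line differences was not tested.

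At 12 h, in 8 other libraries, 0 genes (0%) passed the same test with edgeR, 730 (4.94%) had an unadjusted p under 0.05, and DESeq2 called 51. Of the 19 genes 15 had the same sign at 12 h as at 36 h (78.9%, against 54.3% of all genes), and all 19 were larger in size at 36 h, the time by which they were chosen. Lhfp (1.78 ± 0.31, edgeR adjusted p = 0.0813) and Pde5a (1.49 ± 0.25, adjusted p = 0.0787) were close at 12 h to their 36 h values. Kcnc4 (-0.16 ± 0.36), Ppp1r14c (-0.07 ± 0.31), Slc16a6 (-0.15 ± 0.28) and Pou3f2 (-0.15 ± 0.31) were near 0. The change of the line difference between the times did not pass for any of the 19, the lowest adjusted p being 0.338. It passed for 1 gene of 14792 (0.00676%), Syt9, a synaptotagmin that senses calcium in exocytosis (chr7:107370728-107548656, plus strand), with 745 genes (5.04%) at an unadjusted p under 0.05. At 36 h Syt9 was 13.1 and 17.4 CPM, then 12.0 and 11.3 CPM, in NIL and 58.6 and 70.4 CPM, then 101 and 93.6 CPM, in NIP. Its line difference was 0.95 ± 0.23 at 36 h and -1.49 ± 0.23 at 12 h, a change of 2.44 ± 0.32 (adjusted p = 0.0122). The amino acid list, with a median of 0.60 at 36 h, had one of -0.68 at 12 h, and cholesterol synthesis, with 0.61, one of -0.05.

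**Figure D4:**
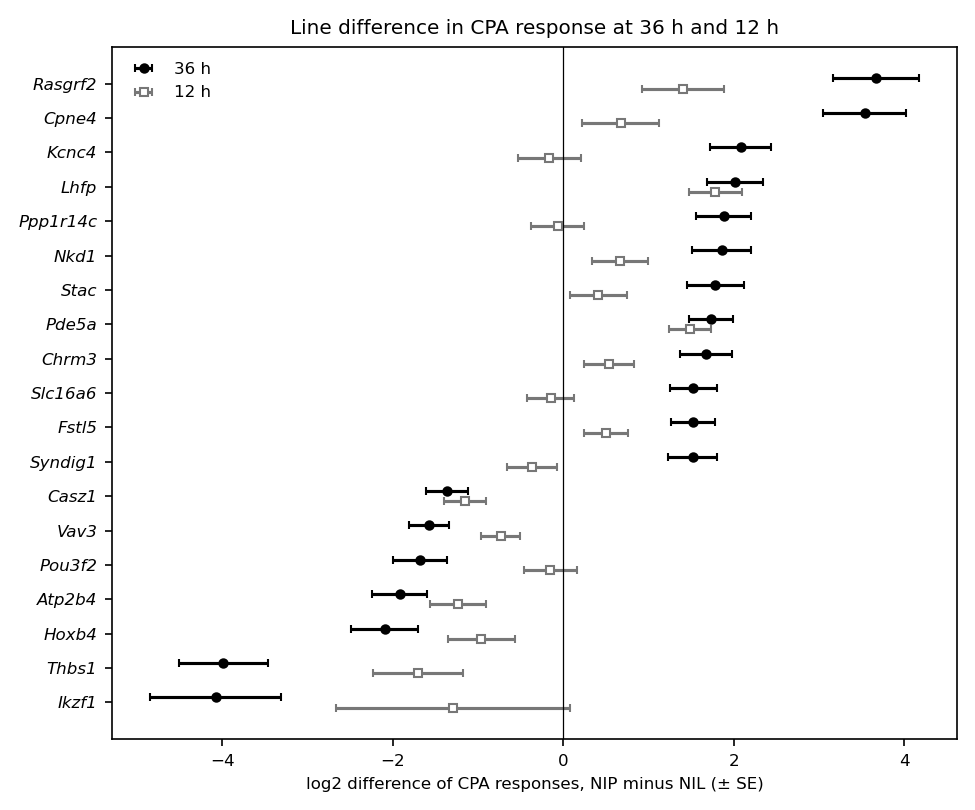
Line difference in the log2 CPA response, NIP minus NIL, with its standard error, at 36 h (filled circles) and at 12 h (open squares) for the 19 genes past the test at 36 h. All 19 lie farther from 0 at 36 h, and Lhfp and Pde5a lie closest to their 12 h values among the positive genes.

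When each line had its own replicate block, 169 genes (1.14%) passed the test at 36 h, 95 (0.642%) higher in NIP and 74 (0.500%) lower, among them all 19. This fit lowered the biological coefficient of variation from 15.7% to 13.5% and left 8 residual degrees of freedom in place of 9. Its calls outside the 19 were chosen here after their values were seen. They included Stk32a, a kinase, at 4.68 ± 0.51 (edgeR adjusted p = 0.00198), which was 64.0 and 17.9 CPM, then 42.8 and 11.7 CPM, in NIL and 4.53 and 3.03 CPM, then 65.7 and 59.7 CPM, in NIP. Slc18a3 (1.43 ± 0.22, adjusted p = 0.00653) and Ret (1.29 ± 0.24, adjusted p = 0.0159) passed in this fit, as did Bcl2 and Ddit4, all with a higher response in NIP. The heat shock genes Hspa1b and Bag3, the spinal factors Isl2 and Pou3f1 and the cranial factor Tbx20 passed with a lower one. Ccnd1, a cyclin like Ccnd2, was lower (-3.39 ± 0.67, adjusted p = 0.0428), at 61.1 and 57.6 CPM in untreated NIP and 6.64 and 7.61 CPM with CPA, beside 3.47 and 10.6 CPM, then 4.19 and 13.4 CPM, in NIL. In this fit 0 genes of the ER chaperone, amino acid and cholesterol lists passed. ER genes outside the lists did pass. Pdia2, a protein disulfide isomerase, was at -6.91 ± 1.60 (edgeR adjusted p = 0.0479), with a highest group mean of only 0.468 CPM. Svip, an inhibitor of ER-associated degradation, was at 1.07 ± 0.22 (edgeR adjusted p = 0.0253).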

How the data were processed

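RNA was measured in 20 libraries of mouse stem cell-derived motor neurons, prepared, per the labels, from total RNA by a KAPA kit with ribosomal RNA depletion. Each deposited file gives a count of reads for each gene symbol. The submitters' processing notes name HTSeq 0.6.1p1, Picard, Bowtie2 2.3.2 and TopHat2 2.1.1, with the build GRCm38 (mm10). Strand setting and annotation release are not given in the sources used here, so overlapping genes may share reads. Of 24421 symbols 14792 passed edgeR's filterByExpr by group. The 5 lines of unassigned reads were left out. In the 36 h libraries they included 25.6% to 52.6% non-unique, 8.75% to 18.7% outside genes and 0.156% to 0.403% ambiguous reads.

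edgeR 4.0.16 (R 4.3.3; TMM factors, robust quasi-likelihood, Benjamini-Hochberg adjustment over all tested genes, threshold 0.05) was fitted to all 20 libraries with a mean for each of 10 groups and the replicate number as a block, leaving 9 residual degrees of freedom. CPM use the TMM-scaled library sizes, a gene's change is log2, SE is the log2 value divided by the root of the F statistic, and intervals are 95%. Replicates differed by more than sampling noise in each 36 h group (chi-square 87.7 to 254 for each degree of freedom). This chi-square took in all genes with reads, Rn45s among them, and was not computed without Rn45s. The highest values were 254 in NIL with CPA and 247 in untreated NIP. There Rn45s took 8.67% and 38.3%, and 38.6% and 11.7%, of gene reads in replicates 1 and 2. Replicate numbers come from the titles. Deviations of replicate 1 from replicate 2 correlated in all 45 pairs of groups (r 0.243 to 0.763), and in the 6 pairs at 36 h (0.277 to 0.668), so the numbers pair libraries.

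Named genes passed the 36 h test with at least 5 CPM in the highest group, at least 1 CPM in a group of each line and the same sign in both replicate sets (up to 12 a direction), or belonged to a group of ER stress and identity genes. The members, 37 gene lists (30 of function, 7 of other cells) and tests were chosen with earlier results of these data known. Alternatives were other blocks, scalings, filters, DESeq2 1.42.0, left-out libraries and a fold threshold. A separate block for each line with Rn45s removed, or without both libraries high in Rn45s, was added after seeing the data. Promoters came from RefSeq (GRCm38.p6) and gene positions from GENCODE vM21.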

Additional observations from a re-analysis of the deposited data

Results flagged for a closer look

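Each gene below is listed because the effect of CPA differed between the lines by a test of the difference itself. Values are log2 line differences at 36 h, NIP minus NIL, from 2 libraries a group. On the positive side they were 3.66 for Rasgrf2, 3.53 for Cpne4, 2.08 for Kcnc4, 2.02 for Lhfp, 1.88 for Ppp1r14c, 1.85 for Nkd1, 1.78 for Stac, 1.73 for Pde5a, 1.68 for Chrm3, 1.53 for Slc16a6, 1.52 for Fstl5 and 1.52 for Syndig1. On the negative side they were -4.07 for Ikzf1, -3.99 for Thbs1, -2.10 for Hoxb4, -1.92 for Atp2b4, -1.68 for Pou3f2, -1.57 for Vav3 and -1.37 for Casz1. Syt9 is listed because its line difference was higher at 36 h than at 12 h by 2.44 on the log2 scale.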

How the results depend on the processing

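The count of 19 genes with a line difference at 36 h was 0 with no replicate block, 169 with a replicate block within each line, 0 with the 8 libraries alone, 11 with DESeq2's size factors in edgeR, 146 with DESeq2, 6 without both libraries high in Rn45s, 181 with the line blocks and Rn45s removed, and 41 with the line blocks and without both libraries, and 0 to 84 when 1 library was left out. It was 14 with Rn45s removed, 27 with no filter, 13 with a stricter filter and 19 with an added limit of 1 log2 unit. The 19 genes kept their sign in each alternative in which they were tested, which their selection favours, at 0.698 to 1.29 times the reported value.

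The NIL count of 2697 was 145 with no replicate block, 1554 with the 8 libraries alone, 404 without both libraries high in Rn45s, 971 with the limit of 1 log2 unit and 337 to 3063 with 1 library left out. The NIP count of 1517 was 344, 998, 663, 815 and 486 to 1580 under the same settings, and 2310 with the line blocks. The libraries that moved them most when left out were untreated NIL replicate 1 (337) and NIL with CPA replicate 2 (527), and untreated NIP replicate 2 (486). At 12 h the count of 0 was 24 with the line blocks and 51 with DESeq2. The count of 1 for 36 h minus 12 h was 0 with no replicate block, 5 with the line blocks and 17 with DESeq2. The causes were not tested.

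Among genes below the threshold the sign turned for Ddit3 (0.014 with the line blocks, 0.007 with the 8 libraries alone, 0.50 without both libraries high in Rn45s, -0.35 to 0.39 with 1 left out), Atf4 (-0.44 to 0.21 with 1 left out), Trib3 (0.13 without both, -0.86 to 0.078 with 1 left out), Chac1 (-0.013 with DESeq2, -0.48 to 0.57 with 1 left out), Phox2a (0.65 without both, -2.58 to 0.58 with 1 left out), Atp2a2 (-0.096 without both, -0.14 to 0.22 with 1 left out) and Rn45s (0.75 without both). With 2 libraries a group, a fit that leaves out a library assumes that the lone one varies like the other groups. Depth limited Ikzf1 (4 to 47 reads) and Lhx3 in NIP.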
